A study of Mus musculus with 20 samples.

Results

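The Tcf/Lef transcription factors Tcf7l2, Tcf7l1, Tcf7 and Lef1 were followed after silencing of Tcf7l2 in the mouse preadipocyte line 3T3-L1. They are the 4 genes with these names in each deposited table, out of 33581 genes, and all 4 were listed in all 5 tables, 1 table per day. All cells carried a stably integrated lentiviral small hairpin RNA, either against Tcf7l2 (knockdown) or scrambled (control). RNA was taken at days 0, 2, 4, 6 and 8 of adipogenic differentiation. There were 2 libraries per hairpin and day, numbered 1 and 2, which gives 10 groups and 20 libraries. Per the labels, hairpins were introduced into low-passage fibroblasts, puromycin-resistant cells were kept as a mixed population, and the differentiation medium did not routinely hold a thiazolidinedione. Both arms thus carried a vector, and an effect peculiar to the hairpin used cannot be told apart from loss of Tcf7l2, since 1 knockdown condition was sequenced. Nothing in the labels ties the 2 libraries of a group to separate cultures, so the p-values rest on the spread between these libraries, which may be technical.

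Tcf/Lef proteins bind DNA through a high mobility group box that recognises a CTTTG core. They recruit Groucho/TLE corepressors to their target genes and, when Wnt signals stabilise beta-catenin, exchange them for beta-catenin and its coactivators. Wnt signalling is known to hold preadipocytes back from differentiation. Tcf7l2 is a locus of type 2 diabetes risk in people, Tcf7l1 is known mainly as a repressor, Lef1 mainly as an activator, and Tcf7 (TCF1) together with Lef1 for its part in T cell development.

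In scrambled cells the 4 genes differed in level and in time course. Tcf7l1 was the most abundant per length, Tcf7l2 varied 1.35-fold between its highest and lowest day mean, Lef1 was above its day 0 level at days 2, 4 and 6, and Tcf7 was barely detected. In knockdown cells Tcf7l2, Lef1 and Tcf7l1 were all lower on average over the days. The average knockdown minus scrambled difference was -1.36 for Tcf7l2, -0.68 for Lef1 and -0.46 for Tcf7l1, in the deposited variance-stabilised log2 values. The adjusted p-values were 2.61e-08, 0.000440 and 2.19e-05 in limma. In the same test 25.4% of the 16497 genes tested were called at an adjusted p under 0.05, so a call in this average was common, and 13.2% were called lower. The members were ranked 44 (Tcf7l2), 389 (Lef1) and 933 (Tcf7l1) from the lowest among all genes tested by the size of this difference. In bulk RNA, fewer cells of a type and less RNA per cell cannot be told apart.

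Levels are given below as RPM, that is reads scaled to a library total of 1000000, from read counts recovered from the deposited values. Library totals were 20153362 to 33973608 reads, with a read in 19838 to 21219 genes. Markers matched the labelled cells. The 6 preadipocyte or fibroblast markers summed to 6899 to 32564 RPM over scrambled and 9241 to 28273 RPM over knockdown libraries. The 5 adipocyte markers summed to 526 to 602 RPM in scrambled cells at day 0 and to 10115 and 22092 RPM at day 6. In knockdown cells they summed to 309.7 to 419.8 RPM at day 0 and to 2968 and 4501 RPM at day 6. Lpl made up nearly all of the lowest day 0 sum: 522.1 of 526.2 RPM in scrambled and 308.8 of 309.7 RPM in knockdown cells. The 7 T lymphocyte markers, from cells rich in Tcf7 and Lef1, summed to 0.126 to 0.744 RPM in scrambled and 0.209 to 0.445 RPM in knockdown libraries, with 2 of 7 at 0 in all libraries. In scrambled cells at days 4, 6 and 8 the library numbered 2 had more adipocyte marker RNA than the library numbered 1 (11413 against 3683, 22092 against 10115, and 22706 against 5255 RPM). Results on the Tcf/Lef genes at those days are given with the values of both libraries.

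Tcf7l2 (ENSMUSG00000024985.11) lies on the plus strand at chr19:55741820-55933654 in GRCm38, Tcf7l1 (ENSMUSG00000055799.6) on the minus strand at chr6:72626378-72789254, Lef1 (ENSMUSG00000027985.8) on the plus strand at chr3:131110471-131224356, and Tcf7 (ENSMUSG00000000782.8) on the minus strand at chr11:52252371-52283014. The deposited reads had been aligned to mm9, so no coordinate here comes from the tables. The bases before the most upstream RefSeq start sites of Tcf7l2, Lef1 and Tcf7l1 were searched for the CTTTG core. The 250 bases before those of Tcf7l2 (chr19:55741560-55741809, plus strand) and Lef1 (chr3:131110047-131110296, plus strand) and 29 bases around the match of Tcf7l1 (chr6:72789057-72789085, minus strand) are printed from RefSeq on GRCm38.p6. Capitals mark CTTTG or its reverse complement CAAAG.
Tcf7l2: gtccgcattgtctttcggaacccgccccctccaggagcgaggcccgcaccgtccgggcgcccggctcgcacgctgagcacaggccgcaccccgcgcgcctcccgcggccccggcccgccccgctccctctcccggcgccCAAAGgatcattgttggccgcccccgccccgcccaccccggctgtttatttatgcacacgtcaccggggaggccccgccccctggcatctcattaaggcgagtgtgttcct
Lef1: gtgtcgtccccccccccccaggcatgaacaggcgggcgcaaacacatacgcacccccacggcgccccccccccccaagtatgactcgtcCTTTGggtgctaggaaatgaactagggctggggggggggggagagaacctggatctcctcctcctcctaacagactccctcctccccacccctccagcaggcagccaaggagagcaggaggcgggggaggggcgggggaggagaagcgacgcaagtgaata
Tcf7l1: gccctgtcaaaaCTTTGtcgccgcagcgg

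Each of the most upstream windows of 250 bases of these 3 genes held 1 match to the core, starting 111 bases upstream of the RefSeq start site in Tcf7l2 (CAAAG), 161 in Lef1 and 28 in Tcf7l1. The match of Tcf7l1 lies inside the gene span given above (chr6:72626378-72789254), so the 2 annotations differ on where that gene starts. Among all 32851 RefSeq promoter windows of that length, 48.6% held CTTTG on either strand, so a match is common. The longer letters CTTTGAT, which contain the core, were in 3.21% of the windows and in none of the windows of the 4 genes. RefSeq gives further start sites for Tcf7l2 (2 in all) and Lef1 (4 in all): the other window of Tcf7l2 held 1 match and the other windows of Lef1 held 2, 1 and 3. Neither of the 2 windows before the RefSeq start sites of Tcf7 held CTTTG. Whether these sites are where transcription of Tcf7 starts was not examined. A match describes these letters only, and binding was not measured in these data.

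Tcf7l2 itself, the target of the hairpin, had lower levels in each knockdown library than in either scrambled library of the same day. At day 0 scrambled libraries 1 and 2 had 41.9 and 59.0 RPM, and knockdown libraries 1 and 2 had 13.9 and 23.4 RPM. At day 2 the scrambled values were 40.2 and 41.9 RPM and the knockdown values 15.7 and 16.3 RPM. At day 4 they were 38.5 and 40.5 RPM against 12.9 and 12.2 RPM. The libraries of day 0 were the farthest apart within both arms, with library 2 the higher in each. At day 6 scrambled libraries had 49.7 and 54.7 RPM and knockdown libraries 15.5 and 18.1 RPM. At day 8 the values were 52.8 and 54.1 RPM against 19.5 and 16.5 RPM. The knockdown mean thus lay between 31.8% (day 4) and 38.9% (day 2) of the scrambled mean.

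The test of Tcf7l2 was called at every day, in limma on the deposited log2 values with 1 spread per gene shared by all 10 groups. Libraries of a group were not equally far apart. The SD over genes of their difference was 0.199 at day 2 and 0.598 at day 8 in scrambled cells. In knockdown cells it was 0.189 and 0.263. Over genes as a whole, a shared spread can thus be too small for late scrambled groups and too large at day 2. Tcf7l2 itself was farthest apart at day 0, with log2 values of 10.24 and 10.72 in scrambled and 8.88 and 9.49 in knockdown libraries. For this gene the shared spread can be too small at day 0. The knockdown minus scrambled difference of Tcf7l2 was -1.30 at day 0 (SE 0.192, adjusted p = 0.0131), where 0.224% of genes tested were called. At day 2 it was -1.04 (adjusted p = 0.0466, 0.267% of genes called) and at day 4 -1.43 (adjusted p = 0.00139, 1.61% called). At day 6 it was -1.52 (adjusted p = 0.00130, 4.12% called) and at day 8 -1.51 (adjusted p = 0.00117, 5.75% called). The call at day 0 ended without knockdown library 1 (difference -0.99 to -1.60 over all libraries left out in turn) or without scrambled library 2 of that day, and the call at day 2 ended in 14 of 20 such fits. In the authors' deposited table the adjusted p-values of Tcf7l2 were 0.00191, 7.09e-11, 4.65e-10, 1.44e-07 and 7.69e-06 at days 0 to 8. The deposited log2 values compress changes of low genes, so a difference understates the ratio of RPM levels.

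**Figure D1:**
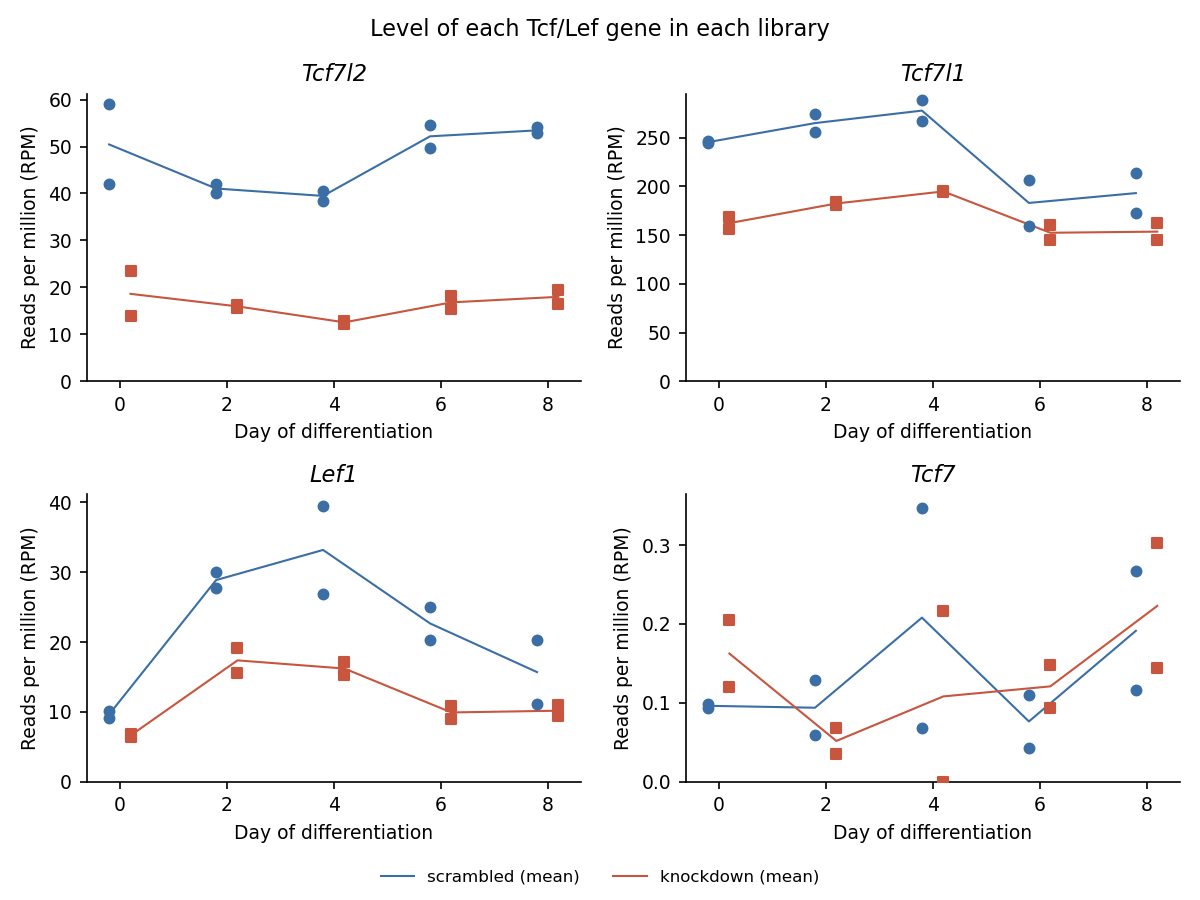
RPM (vertical axes, from 0, a separate scale per gene) of each Tcf/Lef gene in each library against day of differentiation (horizontal axes). Circles are scrambled libraries, squares knockdown libraries, and lines join the means of 2 libraries. Knockdown libraries lie below scrambled libraries at all days for Tcf7l2 and Lef1, the arms of Tcf7l1 overlap at day 6, and Tcf7 reaches at most 0.347 RPM.

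Lef1 had the widest range over time of the 3 genes tested. In scrambled cells its 2 libraries had 10.2 and 9.12 RPM at day 0, 27.7 and 30.0 at day 2, and 26.8 and 39.5 at day 4. They had 20.3 and 25.1 RPM at day 6 and 11.1 and 20.3 at day 8. The highest day mean, 33.2 RPM at day 4, was 3.44-fold the lowest, at day 0. In knockdown cells Lef1 had 6.85 and 6.40 RPM at day 0, 19.2 and 15.6 at day 2, and 15.3 and 17.1 at day 4. It had 10.8 and 9.05 RPM at day 6 and 9.40 and 11.0 at day 8. Both knockdown libraries were below both scrambled libraries at all 5 days, but at day 8 only by 0.153 RPM between the nearest libraries. That full separation at all days held for Tcf7l2 and Lef1 and for 387 genes, 2.35% of those tested.

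The knockdown mean of Lef1 was 68.7%, 60.2%, 48.9%, 43.8% and 64.8% of the scrambled mean in the order of the days. The difference was called at day 6 (-1.04, 95% interval -1.56 to -0.51, limma adjusted p = 0.0338). At days 0, 2, 4 and 8 it was -0.39, -0.54, -0.88 and -0.53, without a call (limma adjusted p = 1.00, 0.963, 0.126 and 0.210). The call at day 6 ended in 9 of 20 fits that each left out 1 library, among them scrambled library 2 and each knockdown library of that day, and in a fit of the day 6 table alone (adjusted p = 0.152). With limma voom on recovered counts and the replicate block, Lef1 was also called at day 4 (-1.03, adjusted p = 0.0329), as it was without either scrambled library of day 8. The day 8 value rested on the 2 scrambled libraries, which differed: it was -0.98 (adjusted p = 0.00764) without scrambled library 1 and -0.09 without scrambled library 2. In the authors' deposited table the adjusted p-values of Lef1 were 0.933, 0.0126, 0.0342, 0.00239 and 0.610 at days 0 to 8.

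Averaged over days, Lef1 was lower by -0.68 (SE 0.112, 95% interval -0.91 to -0.44), and the sign was the same in each of the 5 days. The average was -0.48 (adjusted p = 0.00892) in the libraries numbered 1 alone and -0.87 (adjusted p = 0.0283) in those numbered 2 alone. In scrambled cells at days 4, 6 and 8 the library with the higher adipocyte marker sum also had the higher Lef1 level. In knockdown cells this held at days 4 and 8 but not day 6 (4501 against 2968 RPM, Lef1 9.05 against 10.8 RPM). Over time in scrambled cells both rose from day 0 to day 4. From day 4 to day 6 the sums rose further, from 3683 and 11413 to 10115 and 22092 RPM. Over the same days mean Lef1 fell from 33.2 to 22.7 RPM. The part of adipocyte markers in the difference between the arms was not tested. At day 0 the adipocyte marker sum was 526 to 602 RPM in scrambled and 309.7 to 419.8 RPM in knockdown libraries. Lef1 was also lower in knockdown libraries at this day, without a call, so the 2 differences cannot be told apart there. The lowest of these sums was nearly all Lpl in each arm, so it says little of the other adipocyte markers.

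**Figure D2:**
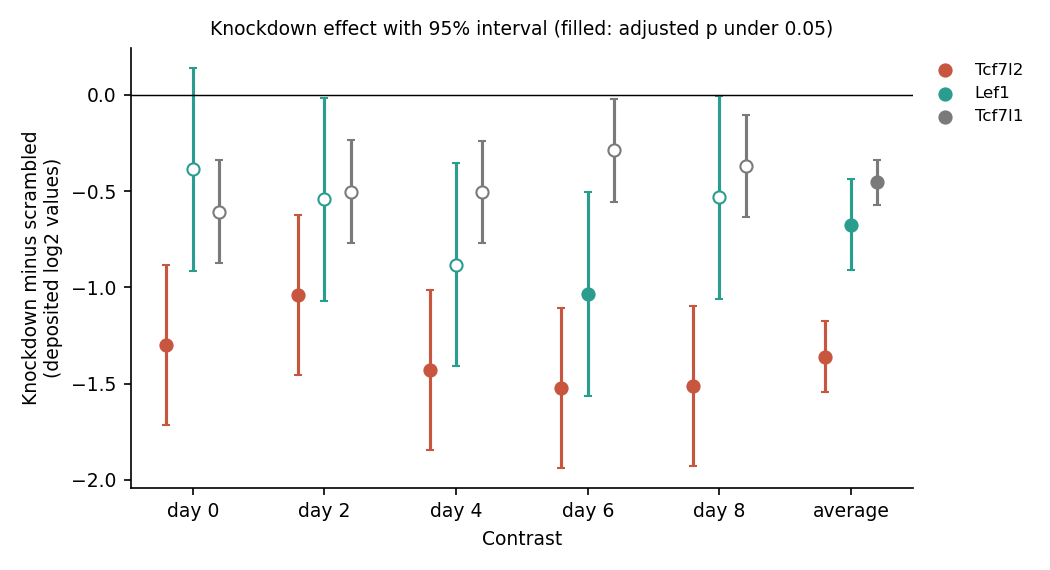
Knockdown minus scrambled difference in the deposited log2 values (vertical axis) at each day and averaged over days (horizontal axis) for Tcf7l2, Lef1 and Tcf7l1. Points are estimates, bars 95% intervals, and filled points have an adjusted p under 0.05: all 6 for Tcf7l2, day 6 and the average for Lef1, and the average for Tcf7l1.

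The mean of Tcf7l1 was lower in knockdown than in scrambled libraries at all 5 days. Its libraries were not separated at every day, as they were for 2.35% of the genes tested. The scrambled libraries had 244 and 246 RPM at day 0, 255 and 274 at day 2, and 267 and 288 at day 4. The knockdown libraries had 168 and 156 RPM at day 0, 184 and 180.5 at day 2, and 194 and 195 at day 4. The gap at these days was wider than the spread within either arm. How many of all genes had such a gap was not counted. At day 6 the scrambled values were 206 and 159.5 RPM and the knockdown values 144 and 160.2 RPM, and the arms overlapped by 0.690 RPM. At day 8 they were 213 and 173 RPM against 145 and 162 RPM. The knockdown mean of Tcf7l1 was thus 66.1%, 68.9% and 70.1% of the scrambled mean at days 0, 2 and 4, and 83.3% and 79.5% at days 6 and 8.

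No single day was called for Tcf7l1 in limma, although all 5 differences were negative. The difference was -0.61 at day 0 (95% interval -0.87 to -0.34, adjusted p = 0.0842), -0.50 at day 2 (adjusted p = 0.205) and -0.51 at day 4 (adjusted p = 0.0683). It was -0.29 at day 6 (adjusted p = 0.180) and -0.37 at day 8 (adjusted p = 0.0952). Without the trend and robust estimation of the spread, day 4 was called (adjusted p = 0.0477). In the authors' deposited table the adjusted p-value of Tcf7l1 was 0.0140 at day 2 and 0.0826, 0.268, 0.646 and 0.726 at days 0, 4, 6 and 8. The average, -0.46 (SE 0.0546, 95% interval -0.57 to -0.34), was called with all libraries and with the libraries numbered 1 alone (-0.49, adjusted p = 0.000551). With the libraries numbered 2 alone it was -0.42 (adjusted p = 0.0709).

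In the scrambled libraries numbered 2, which had the higher adipocyte marker sums at days 4, 6 and 8, Tcf7l1 was the higher of the pair at day 4 and the lower at days 6 and 8. Lef1 was the higher at all 3 of these days. Against the same-numbered scrambled library, knockdown Tcf7l1 was 70.0% in library 1 and 100.4% in library 2 at day 6, and 67.8% and 94.0% at day 8. At days 0 to 4 these ratios were 63.4% to 72.6%. The part of the adipocyte marker levels in the late values was not tested. An antisense gene that overlaps Tcf7l1, Gm15401, had 0.518 to 2.80 RPM, and whether reads were assigned by strand is not given in the sources used here.

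Tcf7 had 0 to 11 reads per library, 38 reads over all scrambled and 39 over all knockdown libraries, and was at 0 in 1 knockdown library of day 4. Its level was 0.0430 to 0.347 RPM in scrambled libraries (median 0.105) and 0 to 0.302 RPM in knockdown libraries (median 0.132). A count of 0 allows up to 3 reads, or 0.0888 to 0.144 RPM at the depth of the knockdown libraries. Tcf7 was below the filter of a mean normalised count of 10 in every table, so it was not tested and a difference was not detectable at this depth. Without the filter its average difference was -0.012 (adjusted p = 0.929 in limma). The authors' deposited table gives no adjusted p-value for it on any day.

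Whether the knockdown effect differed between days was tested in limma voom on the recovered counts, with an F test of hairpin by day. The adjusted p was 1.00 for Tcf7l2, Tcf7l1 and Lef1 alike, and the unadjusted p-values were 0.802, 0.405 and 0.538. No gene was called (0 of 16497 genes, 0%), and 467 genes had an unadjusted p under 0.05. With the replicate block 0 genes were called as well, with 1556 at an unadjusted p under 0.05, and the adjusted p-values of the members were 0.653 to 0.699. The wider gap of Lef1 at days 4 and 6 and the narrower gap of Tcf7l1 at days 6 and 8 are therefore not shown to differ from the other days.

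Within each arm, days 2, 4, 6 and 8 were compared with day 0 on the recovered counts in limma voom. In scrambled cells Lef1 rose by 1.68 on the log2 scale at day 2 (adjusted p = 0.00146), 1.83 at day 4 (0.00242) and 1.27 at day 6 (0.0165). Its change at day 8 was 0.70 (adjusted p = 0.157), and 1.20 (adjusted p = 0.00769) without scrambled library 1 of that day. The rise at day 6 was not called without scrambled library 2 of day 6 or without either scrambled library of day 0. Beside these, 24.7%, 14%, 18.3% and 10.7% of genes were called in scrambled cells at days 2, 4, 6 and 8.

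In knockdown cells Lef1 rose by 1.52 at day 2 (adjusted p = 0.00674) and 1.38 at day 4 (adjusted p = 0.0375), and changed by 0.59 at day 6 (0.562) and 0.66 at day 8 (0.536) without a call. The day 4 call ended in 14 of 20 fits that left out 1 library, and the day 2 call without knockdown library 2 of day 0 or knockdown library 1 of day 2. Of all genes, 15.5%, 3.13%, 0.588% and 0.721% were called in knockdown cells at days 2, 4, 6 and 8. The fold over day 0 at day 2 was 3.20 in scrambled and 2.87 in knockdown cells, with 95% intervals of the log2 changes (1.04 to 2.32 and 0.82 to 2.22) that overlap.

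Tcf7l1 fell by 0.40 on the log2 scale at day 6 in scrambled cells (limma voom adjusted p = 0.0428), its only called change from day 0 in either arm. That call ended in 13 of 20 fits that left out 1 library, with no filter (adjusted p = 0.0599), with scaling to total reads (0.0523), with quantile normalization (0.0618) and without the late libraries numbered 2 (0.356). Its other changes ran from -0.31 (scrambled, day 8) to 0.35 (knockdown, day 4). For Tcf7l2 no change from day 0 was called in either arm. Its changes ran from -0.28 (day 4) to 0.14 (day 8) in scrambled and from -0.45 (day 4) to -0.0048 (day 8) in knockdown cells.

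**Figure D3:**
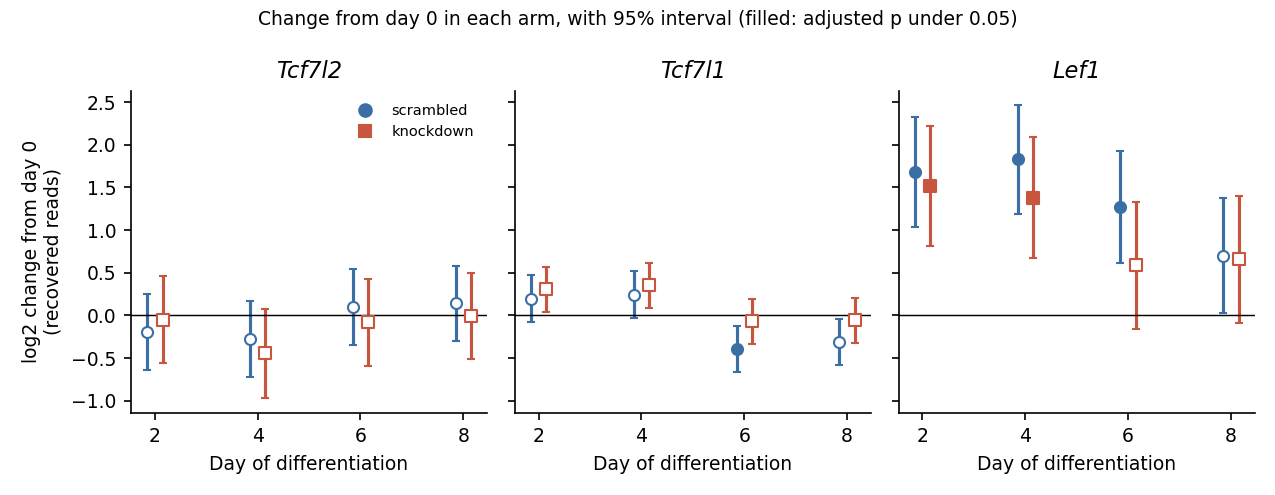
Log2 change from day 0 (vertical axis, shared by the panels) at days 2, 4, 6 and 8 (horizontal axes) for Tcf7l2, Tcf7l1 and Lef1, with circles for scrambled and squares for knockdown cells. Bars are 95% intervals and filled points have an adjusted p under 0.05. Lef1 is filled at days 2 and 4 in both arms and at day 6 in scrambled cells, and Tcf7l1 at day 6 in scrambled cells.

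Because the genes differ in length, their levels were set against each other per kilobase of merged exons (8775 bases for Tcf7l2, 3924 for Tcf7l1, 8788 for Lef1 and 2625 for Tcf7, GENCODE on GRCm38). On this scale Tcf7l1 made up 81.7% to 91.2% of the summed RPM per kilobase of the 4 genes in scrambled libraries (median 88.9%). In knockdown libraries it made up 91.7% to 94.7% (median 92.7%). Tcf7l2 made up 5.59% to 12.5% of the sum in scrambled and 2.62% to 6.16% in knockdown libraries. Lef1 made up 1.47% to 5.73% and 1.68% to 4.29%. With the longest coding transcript as length (added after the data were seen), Tcf7l1 still had the largest share, 70.5% to 84.9% in scrambled and 85.6% to 90.6% in knockdown libraries. The sum itself was 49.8 to 82.6 RPM per kilobase in scrambled and 39.9 to 53.2 in knockdown libraries.

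The order of the RPM per kilobase levels was Tcf7l1, Tcf7l2, Lef1, Tcf7 at all days in scrambled cells and at days 0, 6 and 8 in knockdown cells. In scrambled cells at day 4 the libraries of Tcf7l2 and Lef1 overlapped, so these neighbours could not be told apart there. In knockdown cells Lef1 came before Tcf7l2 at days 2 and 4. At day 2 Lef1 had 1.98 ± 0.291 and Tcf7l2 1.82 ± 0.0482 RPM per kilobase (SD, n = 2), and the libraries overlapped. With the longest coding transcript as length they did not overlap at day 2 (Lef1 5.51 and 4.47, Tcf7l2 4.22 and 4.38). At day 4 Lef1 had 1.84 ± 0.148 and Tcf7l2 1.43 ± 0.0560 RPM per kilobase (SD, n = 2), without overlap. All other neighbours in the order were separated in every group. The tables do not say which exons were counted, so the lengths are those of the annotation and not of the authors' counting.

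Beta-catenin (Ctnnb1), the partner that gives Tcf/Lef factors their activating function, was abundant in both arms. It had 366 to 539 RPM (median 434) in scrambled and 425 to 499.8 RPM (median 465) in knockdown libraries. Its average difference was 0.04 (limma adjusted p = 0.625), and it was -0.03 in the libraries numbered 1 alone and 0.11 in those numbered 2 alone, neither called. In scrambled cells Ctnnb1 had 532 and 539 RPM at day 0 and 423 and 366 RPM at day 6, a fall by 0.41 on the log2 scale (limma voom adjusted p = 0.0384).

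Ctnnb1 was 1 of 22 listed nuclear partners and regulators of Tcf/Lef factors, all of which were tested. On average over the days 3 were higher, 3 lower and 16 not called in knockdown cells, or 6 of 22 called beside 25.4% of all genes. The median difference was -0.0062, against -0.0028 over all genes tested. Lower were Tle3, a Groucho-type corepressor (-0.45, adjusted p = 0.00528), Bcl9l, which bridges beta-catenin to Pygopus (-0.24, 0.00495), and Hbp1, a high mobility group box repressor (-0.20, 0.0140). Higher were Pygo1, a Pygopus coactivator (0.31, 0.0162), Hic1, a zinc finger repressor (0.61, 0.0235), and Aes, a short Groucho-related protein (0.16, 0.0428). Aes was not called with median centring (0.17, adjusted p = 0.0548) or in 13 of 20 fits that left out 1 library. Without the libraries numbered 2 of days 4, 6 and 8, Pygo1 (0.20, adjusted p = 0.182) and Hic1 (0.58, adjusted p = 0.0993) were not called either. In the libraries numbered 2 alone, Tle3 and Hic1 were called and the other 4 were not. The genes called lower and those called higher each included a coactivator and a repressor.

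Tle3 had 50.1 to 88.2 RPM (median 71.2) in scrambled and 39.1 to 62.8 RPM (median 51.1) in knockdown libraries, with overlapping ranges over the days. Pygo1 had 6.74 to 23.6 RPM (median 13.3) in scrambled and 9.56 to 23.2 RPM (median 18.6) in knockdown libraries. It was the only one of the 22 called at a single day (0.70 at day 4, adjusted p = 0.0243), where scrambled libraries had 9.36 and 8.78 RPM and knockdown libraries 16.1 and 17.6 RPM. Over time Pygo1 fell at day 2 in both arms, by 1.48 in scrambled (adjusted p = 0.000161) and 0.74 in knockdown cells (adjusted p = 0.0134). In scrambled cells 8 of the 22 were called at day 2, 3 higher and 5 lower, with a median of -0.19 against 0.01 over all genes, of which 24.7% were called. In knockdown cells 5 of the 22 were called at day 2, 2 higher and 3 lower, beside 15.5% of all genes.

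Of 16 listed Wnt feedback and target genes, 6 passed the filter and 10 did not. None of the 6 was called in the limma average (0 called, 1 at an unadjusted p under 0.05), where 25.4% of all genes were called, and their median difference was 0.20 against -0.0028 over all genes. Axin2, the feedback inhibitor often read as a sign of active Wnt signalling, was among the 10 below the filter. It had 0 to 5 reads (0 to 0.167 RPM) in scrambled and 0 to 13 reads (0 to 0.393 RPM) in knockdown libraries, or 12 and 54 reads in all. Its RPM was higher in the knockdown library than in the same-numbered scrambled library in 9 of 10 pairs and equal, at 0, in 1. How many of all genes had such a pattern over the pairs was not counted. In the limma fit without the filter, the average difference of Axin2 was 0.27 (adjusted p = 0.00459). The deposited values strongly compress so low a gene, and the share of genes called in that fit is not given here. Reads this few are near the floor, and Wnt signalling itself was not tested. None of the 10 had more than 16 reads in any library. The 6 tested were Znrf3, Apcdd1, Ccnd1, Myc, Wisp1 and Cd44, named here after their values were seen. None was called in knockdown against scrambled cells at a single day, beside 0.224% to 5.75% of all genes. In limma 1, 0, 1, 3 and 3 of them had an unadjusted p under 0.05 at days 0 to 8, a share not counted over all genes. The average of Apcdd1 (0.13) joins differences of both signs: 0.78, 0.67, 0.55, -0.58 and -0.79 at days 0 to 8. Its change of effect over days was not called. Myc, a growth regulator, rose at day 2 in both arms, by 3.27 in scrambled (adjusted p = 0.000365) and 2.11 in knockdown cells (adjusted p = 0.00522). Wisp1, a secreted matricellular protein, fell at day 2 in both arms, by 1.55 in scrambled (adjusted p = 0.00448) and 1.40 in knockdown cells (adjusted p = 0.0111). The other 4 were not called at day 2 in either arm. In scrambled cells 1, 3 and 3 of the 6 were called at days 4, 6 and 8, beside 14%, 18.3% and 10.7% of genes. Apcdd1 rose by 2.85 at days 6 and 8 (limma voom adjusted p = 0.00233 and 0.00235). The changes of Cd44 at these days were -1.39 and -1.25 (adjusted p = 0.0188 and 0.0364). Myc was called higher at days 4 and 6, and Znrf3 at day 8. In knockdown cells 0 of the 6 were called at days 4, 6 and 8, beside 3.13%, 0.588% and 0.721% of genes.

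**Figure D4:**
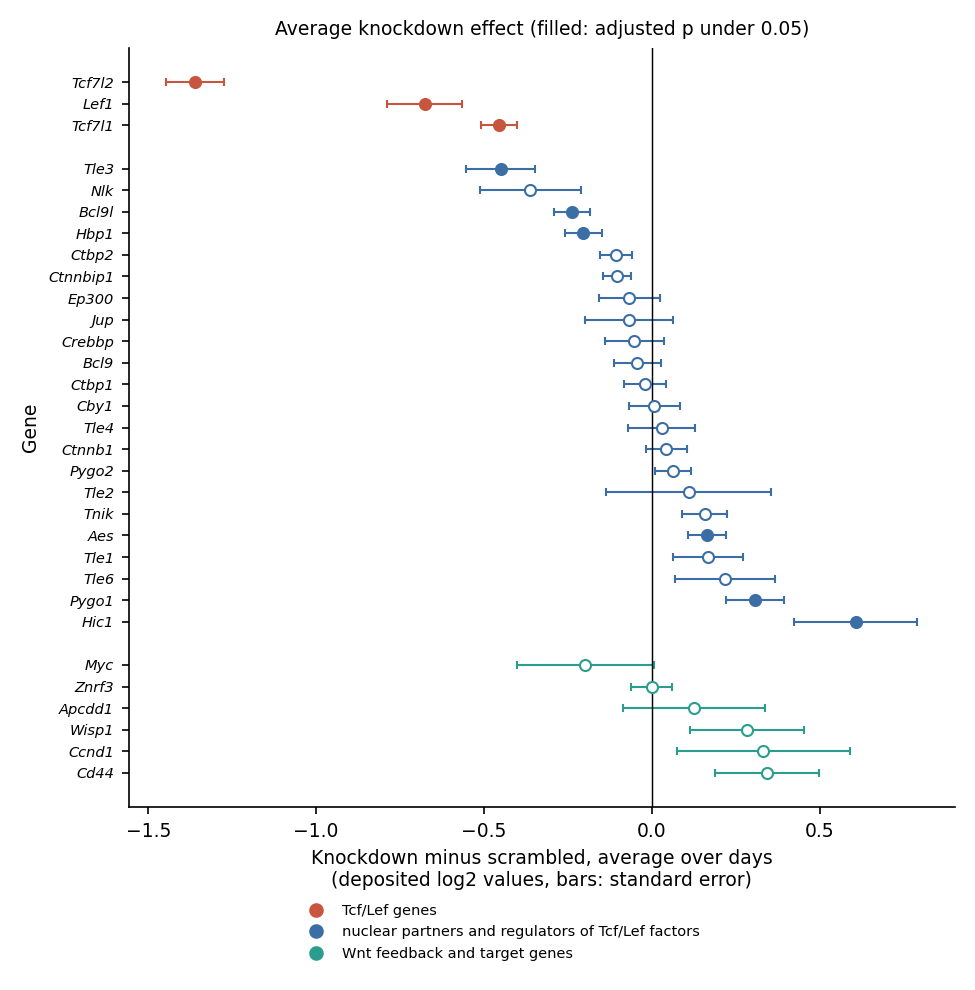
Average knockdown minus scrambled difference in the deposited log2 values (horizontal axis) of the 3 tested Tcf/Lef genes, 22 nuclear partners and regulators, and 6 tested Wnt feedback and target genes (vertical axis, genes sorted within each list). Bars are standard errors and filled points have an adjusted p under 0.05. The Tcf/Lef genes lie furthest to the left for Tcf7l2 (-1.36) and Lef1 (-0.68), the partners fall on both sides of 0, and no target gene is filled.

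Across the 20 libraries, levels of Tcf7l2 and Tcf7l1 had a Pearson r of 0.54 (Spearman rho 0.35) in log2(RPM + 0.5). Within the 10 scrambled libraries r was -0.72 (rho -0.66) and within the 10 knockdown libraries -0.68 (rho -0.67). The libraries share the hairpin and the days, so these values describe the design as well as the genes. Lef1 and Tcf7l1 had r 0.59 (rho 0.59) over all libraries, 0.19 (rho 0.56) within scrambled and 0.70 (rho 0.68) within knockdown libraries.

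Over the 20 libraries and 10873 other genes, the patterns most like that of Lef1 were those of Wnk4 (r 0.96), Foxo1 (r 0.95) and Trim29 (r 0.94). These were also alike within each arm, with r 0.95 to 0.97 in scrambled and 0.86 to 0.97 in knockdown libraries. A Pearson r of at least 0.8 with Lef1 was found for 3.04% of the genes compared. The patterns most like that of Tcf7l1 were those of Vstm2a, Ext1 and Fam117b (r 0.85, 0.84 and 0.84). Most like Tcf7l2 were Twf1 (r 0.91), Mios (0.90) and Rab12 (0.90). Within the arms, Twf1 had r -0.08 (scrambled) and -0.35 (knockdown) with Tcf7l2, so that likeness lay between the arms, whereas Mios had 0.62 and 0.53. Tcf7 was closest to Thumpd1 (r 0.80), Maff (0.79) and Avpi1 (0.77), from so few reads that these values are no finding.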

How the data were processed

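RNA-seq was done on 20 libraries of 3T3-L1 cells, grouped by the hairpin and day in the labels. The submitters' processing notes name mm9, TopHat2 2.0.13, Bowtie2 2.2.3.0, SAMtools and DESeq2 1.10.1. Which program counted reads, and over which gene models, is not given in the sources used here. Per the file headers, each table of 1 day holds variance-stabilised log2 values per library. Beside them the authors deposited their own comparison: a mean signal (normalised count) per gene, a log2 fold change and SE, a score, a p-value and an adjusted p-value. All per-library columns were used (0 left over).

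Inverting the variance-stabilising step gave back read counts; 100% of low values fell within 0.02 reads of a whole number (up to 100 reads tested). Libraries held 20153362 to 33973608 reads, and limits for a count of 0 reflect counting error alone. Tests within a day used limma 3.58.1 (R 4.3.3, statmod 1.5.0; trend and robust options) on the deposited log2 values, with 1 mean per group (10 residual degrees of freedom). The average used day as a factor (14 residual degrees of freedom) and treats libraries of different days as independent, which was not tested. Comparisons across days used limma voom on recovered counts with median-of-ratios scaling. The 16497 genes whose mean normalised count reached 10 in some table were tested, with Benjamini-Hochberg adjustment and a threshold of 0.05. Scripts were first tested on simulated data.

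Both hairpins have libraries numbered 1 and 2. Within a day, what remained after taking out group means correlated between libraries of the same number at 0.783, 0.702, 0.551, 0.537 and 0.468 (days 0 to 8). The pairing was taken from these values, not from the labels, and main fits have no replicate block. The members and gene lists were chosen with earlier results of these data known. Genes named were the 4 members, up to 6 called genes per list, Ctnnb1, Axin2, and the 3 genes most like each member among those with a mean normalised count of 50 or more, predicted genes passed over. Alternatives changed the filter, scaling, spread model, block, input values or libraries used. Protein sequences were not used here.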

Additional observations from a re-analysis of the deposited data

How the results depend on the processing

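No result changed direction while called. The average differences of Tcf7l2 and Lef1 were called under all alternatives run; that of Tcf7l1 was not in the libraries numbered 2 alone (-0.42, adjusted p = 0.0709, chosen after seeing the data). For Tcf7l2 the day values kept their sign and were not called as follows: fitted per table, -1.30 at day 0 (adjusted p = 0.427), -1.52 at day 6 (0.0520) and -1.51 at day 8 (0.336); without the 6 libraries numbered 2 of days 4, 6 and 8, -1.30, -1.04, -1.35 and -1.32 at days 0, 2, 4 and 8 (0.0528, 0.117, 0.158 and 0.108); at day 2 without the filter -1.04 (0.0599) and with median centring -1.03 (0.0556). Leaving out 1 library gave -1.60 to -0.99 at day 0 and -1.08 to -1.00 at day 2 for Tcf7l2, and 0.19 to 1.20 for the change of Lef1 at day 8 in scrambled cells. With the replicate block on the deposited values, the averages of Tcf7l2, Lef1 and Tcf7l1 had adjusted p-values of 2.54e-07, 0.000712 and 0.000235, and it changed no call of a member, unlike the block on recovered counts for Lef1 at day 4.

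Counts of called genes moved more than the members. With the replicate block 132, 128, 512, 2967 and 2817 genes were called at days 0 to 8, against 37, 44, 266, 679 and 948. Limma fits of 1 table gave 0, 264, 111, 52 and 0 (1136 and 1582 genes at an unadjusted p under 0.05 at days 0 and 8), so counts do not rank the days. The average ranged from 722 genes (libraries numbered 2 alone) to 6461 (recovered counts with the block), against 4195. Without the late libraries numbered 2, counts against day 0 in scrambled cells were 1138, 1210 and 584 at days 4, 6 and 8. In knockdown cells, limma trend in place of voom called 281 and 249 genes at days 6 and 8, against 97 and 119. The causes were not tested. Depth limited Tcf7, and 2 libraries per group limited single days.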
